A study of Mus musculus with 12 samples.

Results

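Cytochrome c oxidase, complex IV of the mitochondrial respiratory chain, passes electrons from cytochrome c to oxygen. Its catalytic core is encoded by mitochondrial DNA and surrounded by nuclear-encoded subunits. Several of these come as isoforms from separate genes: subunits 6a, 7a and 8 have a ubiquitous form (Cox6a1, Cox7a2, Cox8a) and a form typical of heart and skeletal muscle (Cox6a2, Cox7a1, Cox8b). Subunit 4 has a ubiquitous form (Cox4i1) and a form known from lung and from hypoxic cells (Cox4i2). Cox7a2l, also called SCAF1, resembles subunit 7a and joins complex III to complex IV in supercomplexes. These 9 genes were chosen by name from the subunits that exist as isoforms, and all 9 of them were found among the 22180 genes with a probeset of a single gene symbol. Each had 1 such probeset and passed the filter on low values, so that all 9 were among the 13308 genes tested.

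The series asks how loss of ERRα, the orphan nuclear receptor encoded by Esrra that activates mitochondrial genes, alters transcripts of mouse gastrocnemius, a calf muscle of mostly fast fibres, at rest and after acute exercise. RNA of FVB mice aged 2 to 3 months, labelled male, was measured on Mouse Gene 2.0 ST microarrays of Affymetrix. There were 3 arrays, labelled as biological replicates, in each of 4 groups: sedentary wild type, sedentary ERRα-null, and both genotypes again 2 h after a treadmill run that ended in exhaustion. How the null allele was made, and whether any animals were pooled, is not given in the sources used here. Values are log2 expression levels normalised by the authors. A level can be compared between arrays for 1 gene, and levels of different genes, measured with different probes, were not set against each other.

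Esrra lay between 7.41 and 7.63 on the 6 wild-type arrays and between 6.55 and 6.89 on the 6 ERRα-null arrays, as labelled. Groups follow the sample titles. The source name label gives another exercise state for the sedentary ERRα-null and the exercised wild-type arrays, which leaves the genotype of each array as it is. Levels of Xist, the RNA that silences an X chromosome in female cells, lay at 7.82 to 7.90 on 3 exercised arrays (wild type replicate 3, ERRα-null replicates 2 and 3) and at most 4.30 on the other 9. The brown fat transcript Ucp1 was at 9.43 to 10.93 on 3 sedentary arrays (wild type replicates 2 and 3, ERRα-null replicate 3) and at most 7.76 elsewhere. The B cell transcript Cd79a was at 7.78 to 8.95 on 3 sedentary arrays (wild type replicates 2 and 3, ERRα-null replicate 1) and at most 5.47 elsewhere. The seminal vesicle transcript Svs5 reached 12.98 on replicate 1 of the sedentary ERRα-null group, against 4.49 or less on the other 11 arrays. That array was the lowest of its group for Cox4i1, Cox6a2, Cox7a1, Cox7a2 and Cox8b. It was the highest of its group for Cox4i2, Cox6a1, Cox7a2l and Cox8a. Without it the genotype difference at rest was −0.48 for Cox4i1 (−0.55 with it) and −0.27 for Cox7a2 (−0.36 with it). The part of seminal vesicle RNA in these levels was not tested. The mean of the 6 measured liver markers ran from 5.81 to 10.33 over the sedentary arrays and from 6.13 to 8.14 over the exercised ones. The 10 fast fibre markers had means of 12.78 to 12.91 over all arrays. In bulk muscle, fewer cells of a type and less RNA per cell cannot be told apart.

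In ERRα-null muscle, averaged over rest and exercise, the ubiquitous isoforms Cox4i1 and Cox7a2 fell. Cox4i1 was at 0.657-fold of wild type (log2 difference −0.61 ± 0.09, standard error of the model here and below; adjusted p = 0.00547) and Cox7a2 at 0.754-fold (−0.41 ± 0.08, adjusted p = 0.0335). The other 7 isoform genes did not pass, although all 9 differences were below 0 (49.8% of all tested genes), with a median of −0.20 where the median of all tested genes was 0.000453. The sign of 2 of them turned in some alternatives. Cox4i2 was at 0.09 without the 3 arrays of high Ucp1 and 0.03 without the 3 of high Cd79a. With liver, adipocyte and B cell scores as covariates it was at 0.02. Cox6a1 was at 0.01 without the arrays of high Ucp1 and 0.03 with the brown fat score as a covariate. Without either set of arrays, here and below, replicate 1 is the only sedentary wild-type array left. That array had the highest mean of the liver markers of all arrays, at 10.33. Markers of some other cell types also lay mostly below 0 in this comparison. These were 6 of 6 tested liver markers (median −0.39), 6 of 6 brown fat markers (median −0.50) and 3 of 3 B cell markers (median −0.23). Endothelial markers were below 0 in 5 of 7 (median −0.11, and 7 of 7 at rest, median −0.22). Of all these, Ighm, which encodes the IgM heavy chain, fell (−1.99, adjusted p = 0.00461). Adipocyte markers did not lie mostly below 0 (1 of 5, median 0.05), nor did pericyte and smooth muscle markers (4 of 10, median 0.04). With liver, adipocyte and B cell scores as covariates Cox4i1 was at −0.61 (adjusted p = 0.0154) and Cox7a2 at −0.41 (adjusted p = 0.0491). The B cell score includes Ighm. Its markers averaged 6.23 to 6.57 in exercised wild type and 5.56 to 5.90 in exercised ERRα-null muscle, without overlap. A fit with this score, here and below, therefore cannot tell its part apart from that of genotype. The part of these cell types in the isoform results, endothelial cells included, was not tested. Calls are those of limma with Benjamini-Hochberg adjustment over all 13308 genes, at an adjusted p under 0.05. In this comparison 1.43% of all tested genes were called and 0.999% were called lower, against 2 of 9 members called lower. At an unadjusted p under 0.05 there were 7 members, where 12.4% of all genes reached that level. No member was called for exercise in either genotype or averaged, and none for the difference between the genotypes in their response to exercise.

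**Figure D1:**
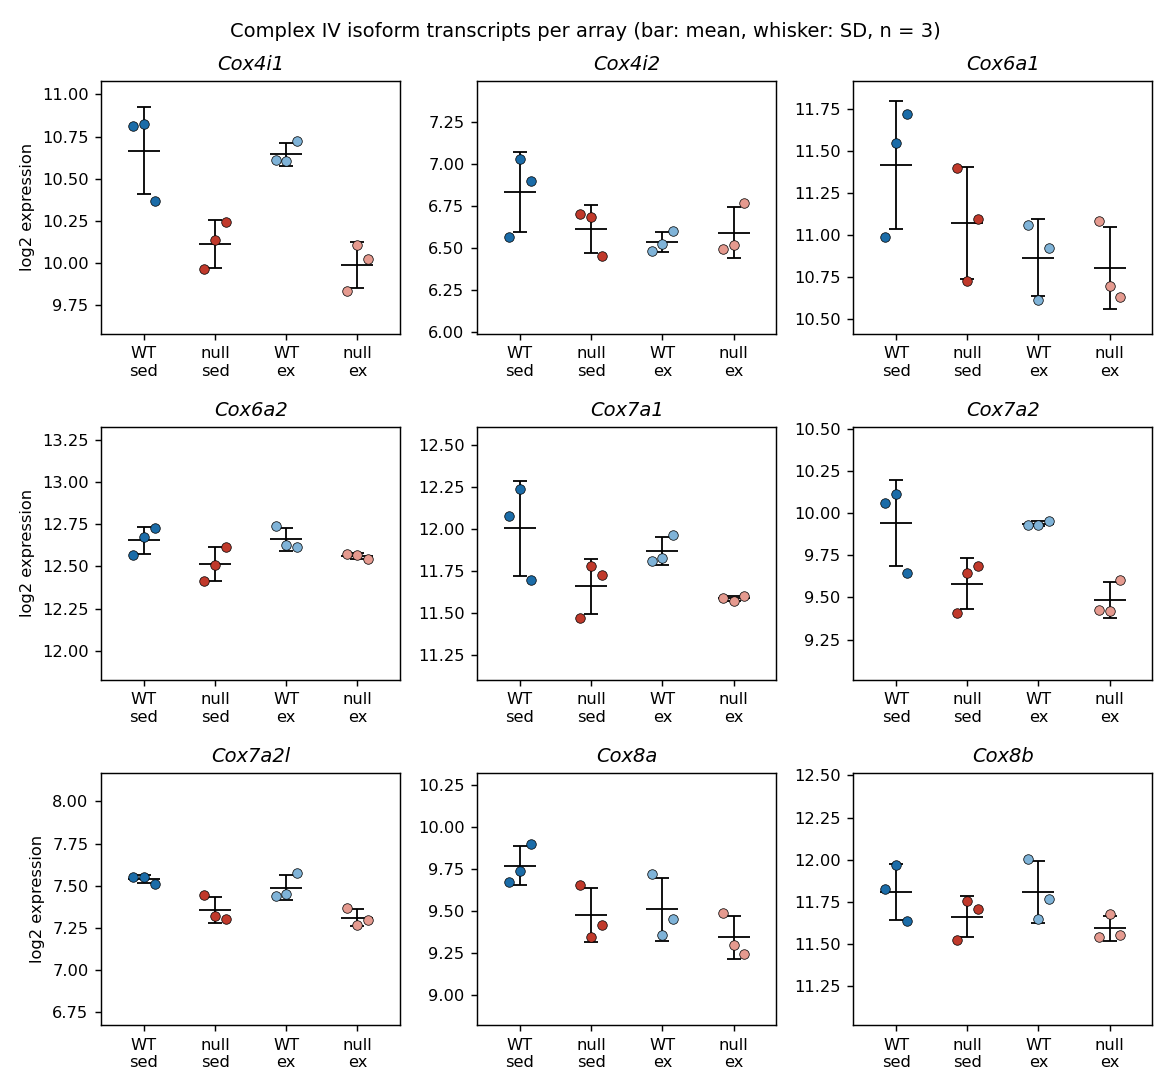
Log2 expression of the 9 isoform genes on each of the 12 arrays, with a panel of equal height (1.5 log2 units) per gene. WT is wild type, null is ERRα-null, sed is sedentary and ex is exercised; dots are arrays, bars the means and whiskers the SD of 3 arrays. Cox4i1 is the gene whose 6 ERRα-null arrays all lie below its 6 wild-type arrays.

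Cox4i1, the ubiquitous subunit 4 that takes part in the regulation of the enzyme by ATP, was measured at 10.81, 10.82 and 10.37 in sedentary wild type and at 9.96, 10.13 and 10.24 in sedentary ERRα-null muscle. After exercise its levels were 10.61, 10.60 and 10.72 in wild type and 9.84, 10.10 and 10.02 in ERRα-null muscle. No ERRα-null array reached the lowest wild-type array in either state. Over all 12 arrays this held for 1 of the 9 members, Cox4i1, and for 1.01% of all tested genes in this direction. At rest the genotypes differed by −0.55 ± 0.12 (0.681-fold, adjusted p = 0.140). In exercised muscle they differed by −0.66 ± 0.12 (0.634-fold, adjusted p = 0.0473). At rest 0 of 9 members passed over all genes, where 0.0827% of all genes passed and 6 members reached an unadjusted p under 0.05 (8.22% of all genes). After exercise Cox4i1 alone passed, where 0.376% of all genes were called and 0.286% were called lower, and 4 members had an unadjusted p under 0.05 (10.4% of all genes).

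The averaged fall of Cox4i1 was called without each of the 12 arrays in turn, between −0.68 and −0.57. It did not pass without the 3 arrays of high Xist, which leaves 1 exercised ERRα-null array, whose spread is then taken from the remaining groups (−0.66, adjusted p = 0.102). The call after exercise was close to the threshold and was lost without 10 of the 12 arrays (adjusted p from 0.0519 to 0.154), at differences between −0.72 and −0.58. It passed where sedentary wild type replicate 3 (adjusted p = 0.0225) or replicate 1 of the sedentary ERRα-null group (adjusted p = 0.0407) was left out. Sedentary arrays do not enter the difference after exercise, which stayed at −0.66 there. They enter only the estimate of the spread that the groups share. At rest the gene passed without sedentary wild type replicate 3 (−0.70, adjusted p = 0.0392), the array with the lowest wild-type level of Cox4i1 and the highest of Ucp1. Replicate 2 of that group, with Ucp1 at 10.82, had the highest level of Cox4i1 of all arrays, also 10.82. The difference between the genotypes in the response to exercise was −0.10 with a 95% interval from −0.48 to 0.27.

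Ordered by group mean, Cox4i1 was highest in sedentary wild type (10.67 ± 0.26, SD, n = 3), followed by exercised wild type (10.65 ± 0.07), sedentary ERRα-null (10.11 ± 0.14) and exercised ERRα-null muscle (9.99 ± 0.14). This order is a description. Neighbours of equal genotype differed by 0.02 and 0.13, less than the larger SD of each pair, and the step from exercised wild type to sedentary ERRα-null muscle was 0.53.

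Cox4i2, the lung and hypoxia form of subunit 4, ranged from 6.45 to 7.03 over the 12 arrays and passed in no comparison. It was at 6.57, 7.03 and 6.90 in sedentary wild type and at 6.70, 6.69 and 6.45 in sedentary ERRα-null muscle. In exercised muscle it was at 6.48, 6.52 and 6.60 in wild type and at 6.50, 6.52 and 6.77 in ERRα-null muscle. The groups overlapped in every comparison. The averaged genotype difference was −0.08, with a 95% interval from −0.27 to 0.11. For exercise in wild type it was −0.30 ± 0.13 (adjusted p = 0.265). The 2 highest arrays of Cox4i2, at 7.03 and 6.90, are sedentary wild type replicates 2 and 3, where Ucp1 and Cd79a were high. Without the arrays of high Ucp1 or those of high Cd79a this value was −0.03. Either set takes out both replicates and leaves replicate 1 (6.57) as the only sedentary wild-type array, so the value had to shrink. Of the 15 tested targets of the hypoxia-inducible factor, 4 rose with exercise averaged over genotypes, where 3.14% of all tested genes rose. These were Slc2a1, the glucose transporter GLUT1 (0.61, adjusted p = 0.000524), Hk2, a hexokinase (0.76, adjusted p = 0.00101), P4ha1, a collagen prolyl hydroxylase (0.57, adjusted p = 0.00111), and Vegfa, the vascular growth factor (0.60, adjusted p = 0.0018). The median of the 15 was 0.09, and 5 of them lay below 0. In wild type alone 4 were called (3.43% of all tested genes) and in ERRα-null muscle alone 0 (0.639%). For the difference between the genotypes in the response to exercise 0 were called (0.00751%). For exercise averaged over genotypes Cox4i2 lay at −0.16 (95% interval −0.35 to 0.03, adjusted p = 0.316). It was at −0.07 without the arrays of high Ucp1 and −0.0053 without those of high Cd79a, with the same limit as above. With the brown fat score as a covariate it was −0.03. That score was higher on every sedentary than on any exercised array, so its part cannot be told apart from that of exercise. Pericytes are a known site of Cox4i2 in adult tissue, and the mean of the 11 pericyte and smooth muscle markers ranged from 8.03 to 8.59 over the arrays, with overlap between the 4 groups.

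Subunit 7a contributed the other called gene. Cox7a2, its ubiquitous form, was at 10.06, 10.12 and 9.65 in sedentary wild type and at 9.41, 9.65 and 9.69 in sedentary ERRα-null muscle. After exercise it was at 9.93, 9.93 and 9.95 in wild type and at 9.42, 9.42 and 9.61 in ERRα-null muscle. The exercised genotypes were apart, while at rest wild type replicate 3 lay within the ERRα-null range. At rest the genotypes differed by −0.36 ± 0.12 (adjusted p = 0.386), in exercised muscle by −0.46 ± 0.12 (adjusted p = 0.130), and the averaged difference passed. That call was lost without 10 of the 12 arrays in turn, at differences from −0.44 to −0.36 (adjusted p from 0.0514 to 0.0915). It passed where sedentary wild type replicate 3 (−0.48, adjusted p = 0.0043) or replicate 3 of the sedentary ERRα-null group (−0.43, adjusted p = 0.0473) was left out. Without the 3 arrays of high Xist the difference was −0.43 (adjusted p = 0.264).

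Cox7a1, the heart and muscle form of subunit 7a, was at 12.08, 12.24 and 11.69 in sedentary wild type and at 11.47, 11.78 and 11.73 in sedentary ERRα-null muscle. After exercise its levels were 11.81, 11.83 and 11.97 in wild type and 11.59, 11.57 and 11.60 in ERRα-null muscle. As for Cox7a2, the exercised genotypes did not overlap and sedentary wild type replicate 3 lay among the ERRα-null arrays. The averaged difference of −0.31 ± 0.08 (0.805-fold, 95% interval of the log2 value −0.50 to −0.13) did not pass (adjusted p = 0.104). It passed without sedentary wild type replicate 3 (−0.39, adjusted p = 0.0105). Without the 3 arrays of high Cd79a, which leaves replicate 1 as the only sedentary wild-type array, it was −0.30. The within-array log2 ratio of Cox7a1 to Cox7a2 changed by 0.09 with genotype (pooled SD 0.07), which an exact permutation test within exercise states did not separate from 0 (two-sided p = 0.075, adjusted p = 0.200 over 8 tests of isoform ratios). The levels of the muscle and the ubiquitous form of this subunit correlated across the 12 arrays (r = 0.934, and r = 0.910 for deviations from the group means).

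Promoter sequences were at hand from RefSeq for 6 of the 9 members, matched by symbol, and not for Cox4i1, Cox4i2 and Cox6a2. The 250 bases before the transcript start are shown for both forms of subunit 7a, because their levels followed each other across arrays, and for Cox8b and Cox6a1 as a further muscle and a further ubiquitous form. Capitals mark the E-box CANNTG, bound by myogenic and other basic helix-loop-helix factors, in the first 3 sequences. In Cox6a1 they mark overlapping matches to the NRF-1 motif GCGCATGC on both strands and 1 match to the GABPA motif CCGGAAG on the minus strand. Build GRCm38.p6, each sequence on its gene's own strand.
Cox7a1 (chr7:30183921-30184170, plus strand): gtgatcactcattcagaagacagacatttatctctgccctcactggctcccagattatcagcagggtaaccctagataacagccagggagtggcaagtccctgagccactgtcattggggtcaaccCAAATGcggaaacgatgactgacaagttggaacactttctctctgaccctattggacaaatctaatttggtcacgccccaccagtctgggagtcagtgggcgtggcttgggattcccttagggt
Cox8b (chr7:140900447-140900696, minus strand): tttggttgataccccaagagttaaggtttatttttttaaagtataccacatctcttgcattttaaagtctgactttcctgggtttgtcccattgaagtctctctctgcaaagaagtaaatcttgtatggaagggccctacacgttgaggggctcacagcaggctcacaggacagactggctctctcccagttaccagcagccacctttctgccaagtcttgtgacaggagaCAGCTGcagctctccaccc
Cox7a2 (chr9:79759854-79760103, minus strand): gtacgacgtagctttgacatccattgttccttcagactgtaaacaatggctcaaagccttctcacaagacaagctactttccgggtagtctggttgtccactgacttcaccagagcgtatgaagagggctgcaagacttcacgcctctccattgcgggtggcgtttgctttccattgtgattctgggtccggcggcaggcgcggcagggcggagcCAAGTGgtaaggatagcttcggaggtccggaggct
Cox6a1 (chr5:115348959-115349208, minus strand): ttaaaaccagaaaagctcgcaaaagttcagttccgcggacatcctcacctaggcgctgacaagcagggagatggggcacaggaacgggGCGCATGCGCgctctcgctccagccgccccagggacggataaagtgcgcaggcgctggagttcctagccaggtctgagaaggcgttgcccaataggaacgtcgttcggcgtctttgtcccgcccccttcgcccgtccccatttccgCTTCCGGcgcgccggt

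The muscle forms had few CpG dinucleotides in this stretch, 4 in Cox7a1 and 1 in Cox8b, and the ubiquitous forms more, 26 in Cox6a1, 14 in Cox7a2 and 11 in Cox8a, with 13 in Cox7a2l, where the median of 32851 promoters was 6. In the window that also takes in 50 bases after the start, neither form of the estrogen-related receptor motif, TCAAGGTCA or its core AAGGTCA, had a match on either strand in the 6 sequences; the extended form occurs in 0.423% and the core in 4.72% of all promoters of this length. The MEF2 motif CTAAAAATA had no match either (0.517% of all promoters). The NRF-1 motif matched in Cox6a1 (2.71% of all promoters), starting 162 bases before the start on the plus strand. GABPA, a factor of mitochondrial genes also called NRF-2, had matches in Cox6a1 and Cox8a (8.86%). The E-box matched in all but Cox6a1, and in 72.3% of all promoters. The hypoxia-inducible factor core matched as ACGTG in Cox7a1 and Cox8b (19.6%) and as GCGTG in Cox7a1, Cox7a2 and Cox8a (32.4%). These matches describe letters only, since no binding was measured here.

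Cox7a2l, the supercomplex factor, had the tightest sedentary wild-type group, at 7.55, 7.55 and 7.51, against 7.45, 7.32 and 7.30 in sedentary ERRα-null muscle. In exercised muscle it was at 7.44, 7.45 and 7.58 in wild type and at 7.37, 7.27 and 7.30 in ERRα-null muscle. The genotypes did not overlap within either state, although the lowest wild-type array, exercised, lay just under the highest ERRα-null array, sedentary. The difference of −0.18 was the same to 2 decimals at rest and after exercise (± 0.07 each), and the averaged value did not pass (0.882-fold, 95% interval of the log2 value −0.30 to −0.07, adjusted p = 0.133). Within states, 3 of the 9 members did not overlap between genotypes at rest (Cox4i1, Cox7a2l and Cox8a), where 6.53% of all genes were lower without overlap. After exercise 5 did not overlap (Cox4i1, Cox6a2, Cox7a1, Cox7a2 and Cox7a2l), where 9.31% of all genes were lower without overlap.

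**Figure D2:**
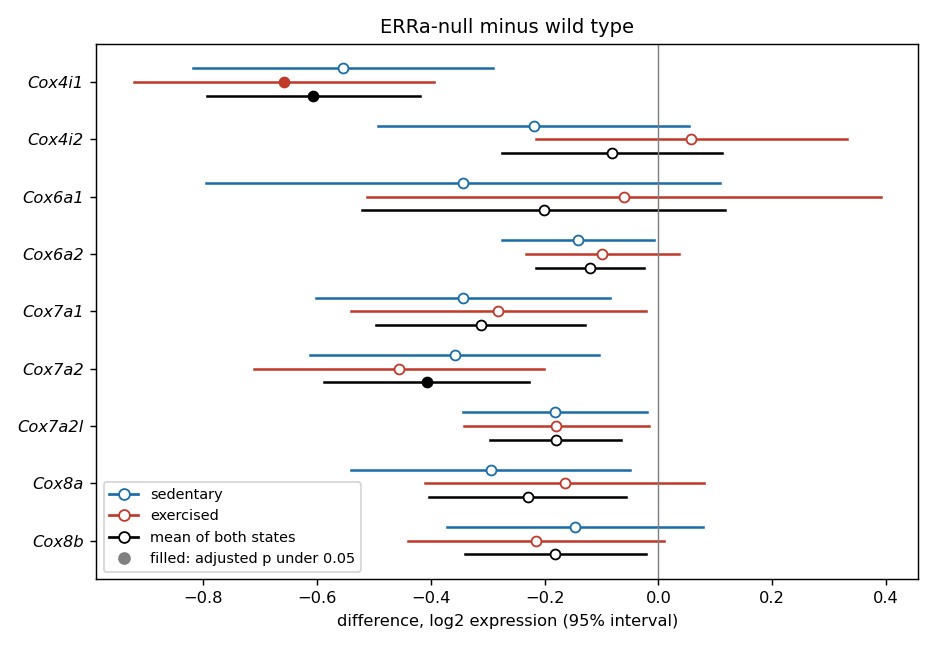
Difference between ERRα-null and wild-type muscle for each isoform gene in log2 units, at rest (blue), after exercise (red) and averaged (black), with 95% intervals of the limma model; filled symbols have an adjusted p under 0.05. Cox4i1 reaches −0.66 after exercise, Cox7a2 passes only in the average, and Cox4i2 lies closest to 0 in the average at −0.08.

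Neither form of subunit 6a passed in any comparison. Cox6a2, the heart and muscle form, was at 12.57, 12.67 and 12.73 in sedentary wild type and at 12.42, 12.51 and 12.62 in sedentary ERRα-null muscle. After exercise it was at 12.74, 12.63 and 12.61 in wild type and at 12.58, 12.57 and 12.54 in ERRα-null muscle. The averaged genotype difference of −0.12 ± 0.04 (0.920-fold) did not pass (adjusted p = 0.254), with a 95% interval from −0.21 to −0.03. It was −0.05 without the arrays of high Cd79a and −0.06 with the brown fat score as a covariate; with liver, adipocyte and B cell scores as covariates it was −0.18 (adjusted p = 0.0830). The highest probeset of each array lay at 13.69 to 13.75, and whether signals this close to the top of the range compress differences was not tested.

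Cox6a1, the ubiquitous form of subunit 6a, varied most between arrays of a group. It was at 10.99, 11.54 and 11.72 in sedentary wild type and at 11.40, 10.73 and 11.09 in sedentary ERRα-null muscle. In exercised muscle it was at 11.06, 10.61 and 10.92 in wild type and at 11.08, 10.70 and 10.63 in ERRα-null muscle. Its 3 highest arrays were the 3 of high Cd79a, at 11.40 to 11.72, and the other 9 lay at 10.61 to 11.09. The genotype difference averaged −0.20 ± 0.15 (adjusted p = 0.669). The exercise difference was −0.55 ± 0.21 in wild type (adjusted p = 0.206) and −0.27 ± 0.21 in ERRα-null muscle (adjusted p = 0.625), neither of which passed. The averaged exercise difference of −0.41 ± 0.15 did not pass (adjusted p = 0.122) and did so without sedentary wild type replicate 1 (−0.52, adjusted p = 0.0364). It was −0.11 without the 3 arrays of high Cd79a, a set chosen after seeing the data. These arrays are all sedentary and the highest of Cox6a1, so leaving them out had to shrink the fall. Without the 3 of high Ucp1, also all sedentary, it was −0.19. Either set leaves replicate 1 as the only sedentary wild-type array. With the brown fat score as a covariate it was 0.13 (adjusted p = 0.914). That score was higher on every sedentary than on any exercised array, so its part cannot be told apart from that of exercise.

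Cox8a, the ubiquitous form of subunit 8, followed Cox6a1 across arrays (r = 0.883 over 12 arrays, and 0.857 for deviations from group means). It was at 9.67, 9.74 and 9.90 in sedentary wild type and at 9.66, 9.35 and 9.42 in sedentary ERRα-null muscle. After exercise it was at 9.72, 9.36 and 9.45 in wild type and at 9.49, 9.30 and 9.25 in ERRα-null muscle. The sedentary genotypes were just apart, and the exercised ones overlapped. The averaged genotype difference was −0.23 ± 0.08 (0.853-fold, adjusted p = 0.228) and the averaged exercise difference −0.19 ± 0.08 (adjusted p = 0.173). The latter was −0.10 without the arrays of high Cd79a, which leaves replicate 1 as the only sedentary wild-type array. With liver, adipocyte and B cell scores as covariates it was −0.02 (adjusted p = 0.920).

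**Figure D3:**
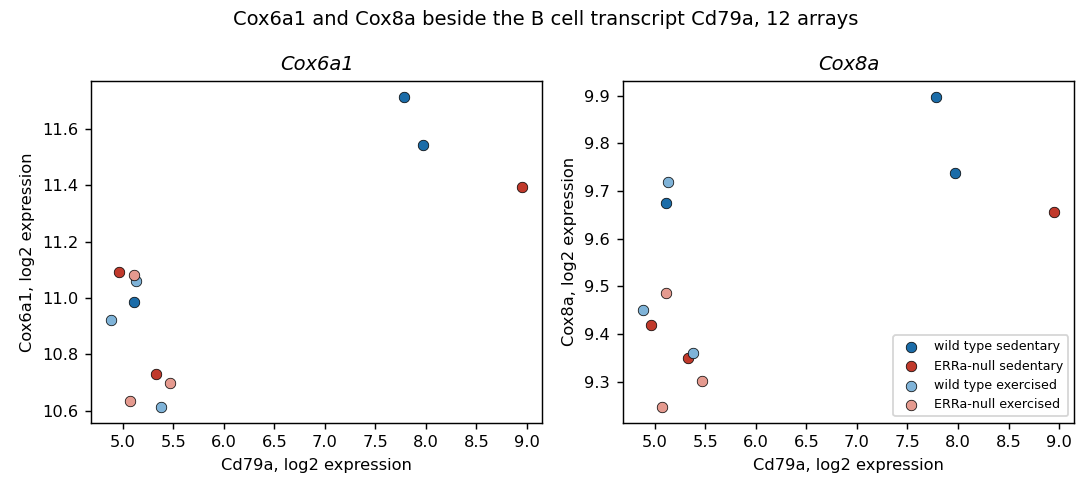
Log2 expression of Cox6a1 (left) and Cox8a (right) against that of Cd79a on the 12 arrays, coloured by group. The 3 arrays with Cd79a at 7.78 to 8.95 hold the 3 highest values of Cox6a1, while Cox8a reaches 9.72 and 9.67 also on arrays of low Cd79a.

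Cox8b, the heart and muscle form of subunit 8 that brown fat also expresses, was at 11.82, 11.97 and 11.64 in sedentary wild type and at 11.53, 11.75 and 11.71 in sedentary ERRα-null muscle. In exercised muscle it was at 12.01, 11.65 and 11.77 in wild type and at 11.54, 11.68 and 11.55 in ERRα-null muscle. The genotypes overlapped in both states. The averaged genotype difference of −0.18 ± 0.07 (0.882-fold, adjusted p = 0.321) did not pass. The 3 arrays of high Ucp1 had Cox8b at 11.97, 11.64 and 11.71, within the range of the other arrays. The 7 brown fat markers averaged 5.92 to 7.14 in sedentary wild type, 5.59 to 6.32 in sedentary ERRα-null, 5.18 to 5.54 in exercised wild type and 5.08 to 5.33 in exercised ERRα-null muscle. With their score as a covariate the averaged genotype difference of Cox4i1 was −0.66 (adjusted p = 0.0206) and that of Cox7a2 −0.46 (adjusted p = 0.0531). The score was itself unequal between the groups, and the part of brown fat in the isoform results was not tested.

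**Figure D4:**
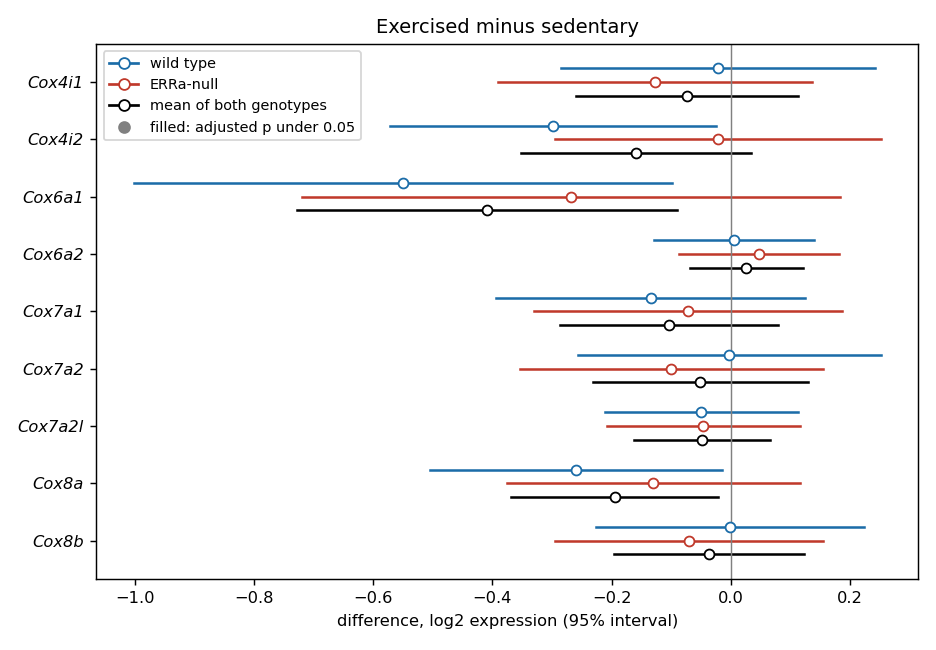
Difference between exercised and sedentary muscle for each isoform gene in log2 units, in wild type (blue), in ERRα-null muscle (red) and averaged (black), with 95% intervals of the limma model. All symbols are open, since no gene of the 9 passed; Cox6a1 has the widest intervals and the lowest values, at −0.55 in wild type.

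For exercise 0 of 9 members were called by limma (an unadjusted p under 0.05 was reached by 3 in wild type, 0 in ERRα-null muscle and 2 averaged, and by 16.1%, 13.1% and 22.5% of all genes), while 6.57% of all tested genes were called for exercise averaged over genotypes, 3.43% in wild type and 0.639% in ERRα-null muscle. Averaged exercise differences of the 9 genes ran from −0.41 (Cox6a1) to 0.03 (Cox6a2), with a median of −0.07 where that of all tested genes was −0.00656. Intervals were narrowest for Cox6a2 (−0.07 to 0.12) and Cox7a2l (−0.16 to 0.07). For Cox4i1 the interval ran from −0.26 to 0.11 and for Cox7a2 from −0.23 to 0.13. The genotypes did not differ detectably in the exercise response of any member (interaction values from −0.10 for Cox4i1 to 0.28 for Cox6a1 and Cox4i2, smallest unadjusted p = 0.144). Of all tested genes 0.00751% were called there and 5.12% had an unadjusted p under 0.05, against 0 members for both.

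**Figure D5:**
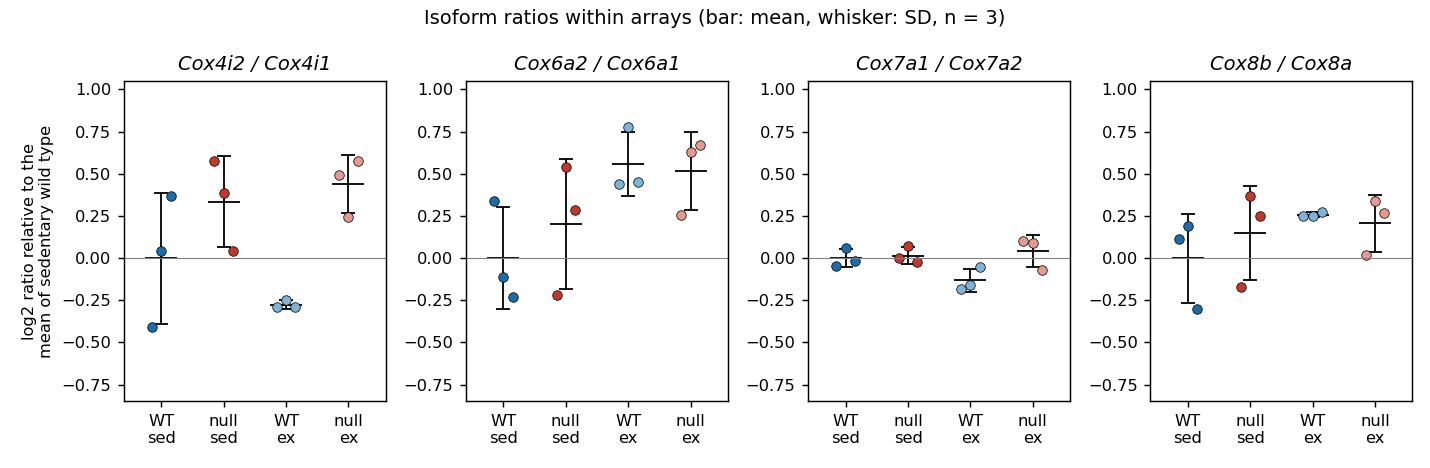
Log2 ratio of the tissue form to the ubiquitous form of a subunit within each array, relative to the mean of sedentary wild type, in the 4 groups; bars are means and whiskers SD of 3 arrays. After exercise the Cox4i2 to Cox4i1 ratio of ERRα-null arrays lies above that of the wild-type arrays without overlap. The Cox7a1 to Cox7a2 ratio has the smallest pooled SD of the ratios shown, 0.07. Its group means, before the reference was subtracted, were 1.93 in exercised wild type and 2.11 in exercised ERRα-null muscle. At rest they were 2.06 and 2.08.

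The isoform ratios asked whether the forms of a subunit changed unequally. The log2 ratio of Cox4i2 to Cox4i1 was −4.13 to −4.08 on exercised wild-type arrays and −3.59 to −3.26 on exercised ERRα-null arrays, and −4.24 to −3.47 and −3.79 to −3.26 on the sedentary ones. Only the change of this ratio between groups can be read, since the probes differ. Averaged over states it was 0.53 higher in ERRα-null muscle (pooled SD 0.25), with an exact two-sided p of 0.015 among 400 arrangements, whose smallest possible p is 0.005, and an adjusted p of 0.1 over the 8 ratio tests, which does not pass. For Cox6a2 to Cox6a1 the ratio changed by 0.08 with genotype (exact p = 0.605) and by 0.44 with exercise (exact p = 0.025, adjusted p = 0.1). For Cox8b to Cox8a it changed by 0.05 with genotype (exact p = 0.670) and by 0.16 with exercise (exact p = 0.235). The genotype direction of these last 2 ratios was not stable. Cox6a2 to Cox6a1 was at −0.08 without the arrays of high Xist and −0.11 without those of high Ucp1, and Cox8b to Cox8a at −0.04 and −0.03. Leaving out replicate 2 of the sedentary ERRα-null group turned both (−0.0029 and −0.0057), and leaving out sedentary wild type replicate 3 turned Cox8b to Cox8a (−0.03).

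Of 10 further subunits listed, 5 were tested, and 2 of these fell in ERRα-null muscle averaged over states: Ndufa4, now counted as a subunit of complex IV (−0.50 ± 0.06, adjusted p = 0.00272), and Cox6b1 (−0.34 ± 0.05, adjusted p = 0.00461). The median of the 5 was −0.32, and 4 of them were below 0. These counts stand beside 0.999% of all tested genes called lower and 49.8% below 0 in this comparison, as do those of the lists that follow. Of 22 tested assembly factors 1 fell, Cox10, which makes the haem A precursor (−0.39, adjusted p = 0.0362), and the median was −0.11. Among muscle forms of other metabolic enzymes and carriers, such as Ckm, Eno3 and Slc25a4, 0 of 10 were called (median 0.01), with Slc25a4 at −0.18 (adjusted p = 0.0797) and Ckmt2 at −0.34 (adjusted p = 0.149), and among 7 tested ubiquitous forms Slc25a5, an ADP/ATP carrier, fell (−0.35, adjusted p = 0.0363; median −0.03). Fibre type markers were measured beside these: the 9 slow fibre markers averaged 8.80 to 9.43 in sedentary wild type and 9.35 to 9.88 in sedentary ERRα-null muscle, 8.99 to 9.64 and 9.29 to 9.58 after exercise, and all 9 averaged differences were above 0 (median 0.36) with none called. Their part in the isoform results was not tested.

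Genes whose levels followed each member most closely over the 12 arrays were named by Pearson correlation, as a description. The correlation of deviations from group means is given after each. For Cox4i1 they were Sod2, the mitochondrial superoxide dismutase (r = 0.988, within groups 0.942), Fh1, fumarate hydratase (0.986, within groups 0.946), and Glrx5, of iron-sulfur cluster synthesis (0.980, within groups 0.932). For Cox7a2 they were Ndufa10 of complex I (0.984, within groups 0.956), the phosphate carrier Slc25a3 (0.970, within groups 0.945) and Sod2 (0.968, within groups 0.960). For Cox7a1 they were Ndufv2 (0.940, within groups 0.865) and Ndufa9 (0.936, within groups 0.843) of complex I and Ckmt2, the sarcomeric mitochondrial creatine kinase (0.935, within groups 0.897). For Cox8b they were Etfb, an electron transfer flavoprotein (0.953, within groups 0.927), Sdhd of complex II (0.901, within groups 0.838) and Lypla1 (0.878, within groups 0.844). Cox4i1, Cox7a1 and Cox7a2 also followed each other (r from 0.899 to 0.960, within groups 0.848 to 0.910).

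The other members had different neighbours. Cox6a1 was followed by Sfxn1 (0.952, within groups 0.916), Coro1b (0.939, within groups 0.910) and Prkab1 (0.932, within groups 0.927). Cox8a was followed by Abca2 (0.959, within groups 0.900), Ahcyl1 (0.936, within groups 0.901) and Dbi (0.904, within groups 0.776). Coro1b is a coronin of the actin cytoskeleton, Prkab1 a subunit of AMP-activated kinase and Dbi the acyl-CoA binding protein. Cox6a2 was followed by Spg7 (0.890, within groups 0.766), Akap2 (0.876, within groups 0.833) and Trappc1 (0.871, within groups 0.864). Cox7a2l was followed by Idnk (0.932, within groups 0.883), Asb1 (0.909, within groups 0.838) and Rp2 (0.871, within groups 0.744). Cox4i2 was followed by Klhl42 (0.941, within groups 0.906), Cfp (0.897, within groups 0.882) and Lfng (0.871, within groups 0.781). Without the 2 arrays farthest from the member's median the correlation of Cox4i2 with Cfp was 0.683 and that with Lfng 0.613, and that of Cox6a2 with Akap2 0.669, so these rest in part on those arrays; for the other 24 it was at least 0.802.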

How the data were processed

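Log2 expression values for 41345 probesets were deposited by the authors; going by the submitters' processing notes, which name RMA, Transcriptome Analysis Console and Affymetrix Expression Console without their roles, they are taken as RMA values, with versions, options and genome build not given in the sources used here. Array medians ran from 5.15 to 5.26 and precision is limited by how few arrays there are. Of the probesets, 23521 have 1 gene symbol, 1814 several and 16010 none. For each gene the single-symbol probeset of highest mean was kept, and the 40% of genes with the lowest mean were left out (lowest mean tested 5.32). Differences were tested with limma 3.58.1 in R 4.3.3, on 4 group means with an intensity trend and 8 residual degrees of freedom; the fit was tested on simulated data. Isoform ratios were tested by exact permutation within strata. Members and gene lists were chosen with earlier results of these data known. By rule, genes named beyond the members and Esrra are the 3 of highest correlation with each member and at most 2 of each list, by smallest p for genotype averaged; the hypoxia targets called for exercise, the array markers Xist, Ucp1, Cd79a, Svs5 and Ighm, and the examples Ckm and Eno3 fall outside it and were chosen after their values were seen. Replicates are those of the labels; p-values measure the spread between these arrays. Equal replicate numbers correlated in the exercised groups (r = 0.312, 0.207 and 0.174 for deviations from group means), a pairing taken from the data, not from the labels. In the sedentary groups these values were −0.232, −0.278 and 0.347. A planned comparison of isoform proteins was not analysed here.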

Additional observations from a re-analysis of the deposited data

How the results depend on the processing

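The averaged fall of Cox4i1 passed in 11 of 12 alternatives and without each of the 12 arrays, and that of Cox7a2 in 8 of 12 and without 2 of the 12 arrays. Some of these alternatives cannot change the difference of a member, only the spread or the adjustment. They are the changed filters on dim genes, the fit without the intensity trend and the mean of a gene's probesets, since each member has 1 probeset. Of the isoform genes, 2 passed for genotype averaged over states; the number was 1 without the intensity trend, with the replicate block on all arrays and with the brown fat score as a covariate, 0 without the 3 arrays of female profile, 3 without the 3 arrays of high Cd79a (an alternative chosen after seeing the data), and 1 to 3 when each array was left out. After exercise 1 passed; it was 0 with array medians set equal, no filter on dim genes, no intensity trend, the replicate block on all arrays, only the arrays compared, the mean of a gene's probesets, the brown fat score as a covariate, without the arrays of female profile and without those of high Ucp1, 2 without those of high Cd79a, and 0 to 1 when each array was left out. With arrays left out in turn, 0 to 1 passed at rest and 0 to 1 for exercise averaged. The cause was not tested. Leaving out the arrays of high Ucp1 or of high Cd79a leaves 1 sedentary wild-type array. Leaving out those of female profile leaves 1 exercised ERRα-null array. With the replicate block on the 6 exercised arrays Cox4i1 kept its call (adjusted p = 0.0244). With the block on the 6 sedentary arrays it did not pass at rest (adjusted p = 0.760). This block is a pairing taken from these same data, so it cannot decide whether the call holds. With the block on all 12 arrays the averaged adjusted p of Cox4i1 was 0.0143 and that of Cox7a2 0.0665. No isoform ratio passed in any alternative. Of 60 member differences that did not pass, 27 changed sign in at least 1 alternative.

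Over all genes, the 190 called for genotype averaged ranged from 6 to 251 over the alternatives and arrays left out, the 50 after exercise from 1 to 105, the 11 at rest from 1 to 28, the 874 for exercise averaged from 172 to 933, the 457 in wild type from 143 to 502, the 85 in ERRα-null muscle from 0 to 113, and the 1 for the interaction from 0 to 6. Arrays give no count depth, and dim genes were left out.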
